A study of Mus musculus with 9 samples.

Results

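The 9 genes described here encode the core of MHC class I antigen presentation, and they were taken as a list by function, with earlier results of these data known: the heavy chains H2-K1, H2-D1 and H2-T23, the light chain B2m, the peptide transporter subunits Tap1 and Tap2, the loading factor Tapbp, the trimming peptidase Erap1 and the transcriptional coactivator Nlrc5. They are 9 of the 54532 genes in the deposited table. A filter on low values, an FPKM (fragments per kilobase of gene length, scaled to a library size) of at least 1 in at least 3 of 9 libraries, kept 11585 genes, and all 9 members passed it. In the deposited coordinates (GRCm38), 6 members lie in the MHC region of chromosome 17, from Tapbp (chr17:33915899-33929288) through H2-K1 (chr17:33996017-34000333), Tap1 (chr17:34187553-34197225), Tap2 (chr17:34203527-34216321) and H2-D1 (chr17:35262730-35267499) to H2-T23 (chr17:36029773-36032855), while B2m (chr2:122147686-122153083), Erap1 (chr13:74639568-74693201) and Nlrc5 (chr8:94434356-94527272) lie elsewhere. Heavy chain names come from a reference annotation of C57BL/6J mice, whereas RAW264.7 cells derive from BALB/c mice, which carry other alleles of these polymorphic genes, and the part of this difference in the heavy chain levels was not tested.

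RNA-seq was performed in RAW264.7 cells, a wild-type mouse macrophage line established from ascites of a virus-induced tumor. Untreated control cells, cells given lipopolysaccharide (LPS, a bacterial cell wall component sensed by Toll-like receptor 4) at 1 μg/ml, and cells given the same LPS together with G-CDs (carbon dots prepared from Glycyrrhiza, licorice root) at 400 μg/ml were compared, with 3 libraries in each group. Per the study's methods, treatment lasted 6 h. The labels give LPS alone as the treatment of the LPS + G-CDs libraries, whose titles name the G-CDs, and no group received G-CDs without LPS. The study mentions independent experiments for its quantification without naming the sequencing libraries, and the labels name no separate cultures, so p-values measure the spread between these libraries, which may be technical. In a bulk sample of this kind, fewer expressing cells and less RNA per cell cannot be told apart.

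Class I molecules display peptides from inside the cell to CD8+ T cells. Proteasomes cut cytosolic proteins into peptides, the Tap1-Tap2 transporter moves these into the endoplasmic reticulum, Erap1 trims them, and Tapbp (tapasin) bridges the transporter to an empty heavy chain paired with B2m. H2-K1 and H2-D1 are classical heavy chains, and H2-T23 encodes Qa-1, a nonclassical heavy chain read by NKG2 receptors on NK and T cells. Interferons are the best known inducers of these genes, acting through IRF factors and through Nlrc5, a coactivator that binds class I promoters together with the RFX complex.

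Reads assigned to genes numbered 14752400 to 17312255 in each library, and the members held from 176 reads (Nlrc5 in control 3) to 10773 reads (B2m in LPS + G-CDs 3). Of 9 macrophage markers, 8 passed the filter and Mertk was at 0 in every library, with a summed marker level of 2654 to 3653 FPKM in control, 3853 to 4071 FPKM in LPS and 3232 to 5333 FPKM in LPS + G-CDs libraries. The markers moved in both directions: with LPS, Cd14 (log2 fold change 2.40), Itgam (0.53, adjusted p = 0.0481) and Adgre1 (means of 9.02 and 27.3 FPKM) were higher and Csf1r (-1.16) and Lyz2 (-0.88) lower by limma, and the mean of Cd14 alone was 436 FPKM in control and 2292 FPKM in LPS libraries. None of 33 markers of T cells, B cells, dendritic cells, neutrophils, fibroblasts and epithelium passed the filter, 12 of them were at 0 throughout, and the highest reached 2.15 FPKM. The library size by which the deposited FPKM were scaled, recovered from the values, differed from the reads on genes by group, at 1.11 to 1.14 times these reads in control, 0.929 to 0.936 times in LPS and 0.880 to 0.980 times in LPS + G-CDs libraries. When FPKM were scaled to the reads on genes instead, an alternative added after seeing the data, the all-gene median of the log2 fold change was -0.21 for LPS against control and -0.19 for LPS + G-CDs against control, and the counts of members that passed in the 3 comparisons below were unchanged. In LPS against control the values under this scaling were 0.35 for H2-K1, 0.29 for H2-D1, 0.09 for Erap1 and 0.01 for Tap2, lower by over 1.5 times than those given below, and with TPM they were 0.35, 0.29, 0.09 and 0.01. The LPS + G-CDs libraries differed from each other along gene length. With genes split into 5 equal length classes, in the shortest class (median 684 bases) the median deviation from the group mean was -0.26, -0.03 and 0.30 on the log2 scale in libraries 1, 2 and 3, and in the longest class (median 9131 bases) it was 0.26, -0.01 and -0.26. In control libraries 1, 2 and 3 these medians were -0.07, -0.07 and 0.17 for the shortest and 0.11, 0.13 and -0.22 for the longest class, so the trend touches every comparison with control as well. They stayed between -0.03 and 0.02 in the 3 LPS libraries.

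Promoter sequence was examined first, in the C57BL/6J reference rather than in the BALB/c-derived cells studied. Of the genes whose windows are shown, only Tap1 rose with LPS at a limma adjusted p under 0.05. Windows of 250 bases upstream of the RefSeq start (assembly GRCm38.p6) were found for 7 of the 9 members, and 4 are shown because they cover a heavy chain pair that shares its elements, the light chain, and a transporter gene that starts beside an immunoproteasome gene. The windows are chr17:34000334-34000583 (minus strand), chr17:35262844-35263093 (plus strand), chr2:122147437-122147686 (plus strand) and chr17:34187306-34187555 (plus strand), written 5′ to 3′ on the gene's strand. Capitals mark the core letters bound by IRF factors (AANNGAAA, or TTTCNNTT on the other strand) and an NF-κB-like form (GGGNNTTCC, or GGAANNCCC on the other strand), which do not overlap each other here.
H2-K1: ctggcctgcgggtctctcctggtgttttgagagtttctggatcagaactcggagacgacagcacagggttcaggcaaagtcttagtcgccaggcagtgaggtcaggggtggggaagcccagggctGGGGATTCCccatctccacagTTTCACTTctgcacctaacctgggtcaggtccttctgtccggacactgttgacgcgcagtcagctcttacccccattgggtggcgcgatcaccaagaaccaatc
H2-D1: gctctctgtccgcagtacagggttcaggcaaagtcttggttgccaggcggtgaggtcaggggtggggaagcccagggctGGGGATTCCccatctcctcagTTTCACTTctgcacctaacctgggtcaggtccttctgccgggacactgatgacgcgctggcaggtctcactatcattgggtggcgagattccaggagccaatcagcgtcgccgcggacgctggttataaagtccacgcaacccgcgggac
B2m: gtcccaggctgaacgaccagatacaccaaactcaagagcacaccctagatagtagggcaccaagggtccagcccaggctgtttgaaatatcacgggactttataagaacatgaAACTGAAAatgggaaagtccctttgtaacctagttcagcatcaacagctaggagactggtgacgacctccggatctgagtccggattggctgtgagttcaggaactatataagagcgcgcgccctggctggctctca
Tap1: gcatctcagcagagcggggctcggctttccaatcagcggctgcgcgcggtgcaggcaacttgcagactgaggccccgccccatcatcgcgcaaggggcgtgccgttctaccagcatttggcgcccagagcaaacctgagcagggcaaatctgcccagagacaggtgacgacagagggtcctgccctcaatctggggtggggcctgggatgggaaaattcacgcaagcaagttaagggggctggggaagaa
The windows of H2-K1 and H2-D1 held the same NF-κB-like letters and the same IRF core, in the same order. In a global alignment, 180 of 203 paired bases (88.7%) were identical, with 94 further positions opposite gaps, since the starts are offset between the windows. The IRF core was present in 4 of the 7 member windows (H2-K1, H2-D1, H2-T23 and B2m) and in 21.3% of all 32851 such windows. The NF-κB-like form was present in 2 of 7 (H2-K1 and H2-D1) and in 4.98% of all windows. Its fixed length does not match ggaaagtccc in the B2m window, which has a longer spacing between GGAA and CCC. Such longer forms were not counted. CCAAT, the letters bound by NF-Y, occurred in 6 of 7 windows and in 33.8% of all. The windows of Tap1, Tapbp and Erap1 held neither of the capitalized forms, and no window was found for Tap2 or Nlrc5. Tap1 and Psmb9, which encodes an immunoproteasome subunit, start 226 bases apart on opposite strands, so their 300-base promoter windows (250 before and 50 after each start) share 275 bases. These matches describe letters only and not bound sites.

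LPS against control asked how the stimulus alone was associated with class I transcripts. Relative to control cells, 4 of the 9 members rose (Tap1, Nlrc5, Tapbp and H2-T23) and 0 fell at a limma Benjamini-Hochberg adjusted p under 0.05, against 15.8% of all genes tested that rose and 15.6% that fell. The median log2 fold change of the members was 1.04, compared with 0.02 over all genes. For 8 members, all but Tap2, the 3 LPS libraries lay above the 3 control libraries, as they did for 27.4% of all genes, and for 0 members they lay below, as for 25.1%. With the replicate number as a block, which called 2115 of 11585 genes higher against 1827 without it, 7 members rose, since H2-K1, H2-D1 and B2m then passed at adjusted p-values of 0.0493, 0.0471 and 0.0281. Removing each library's gene-length trend also gave 7, with 2180 genes called higher. The labels do not say what the replicate number stands for.

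**Figure D1:**
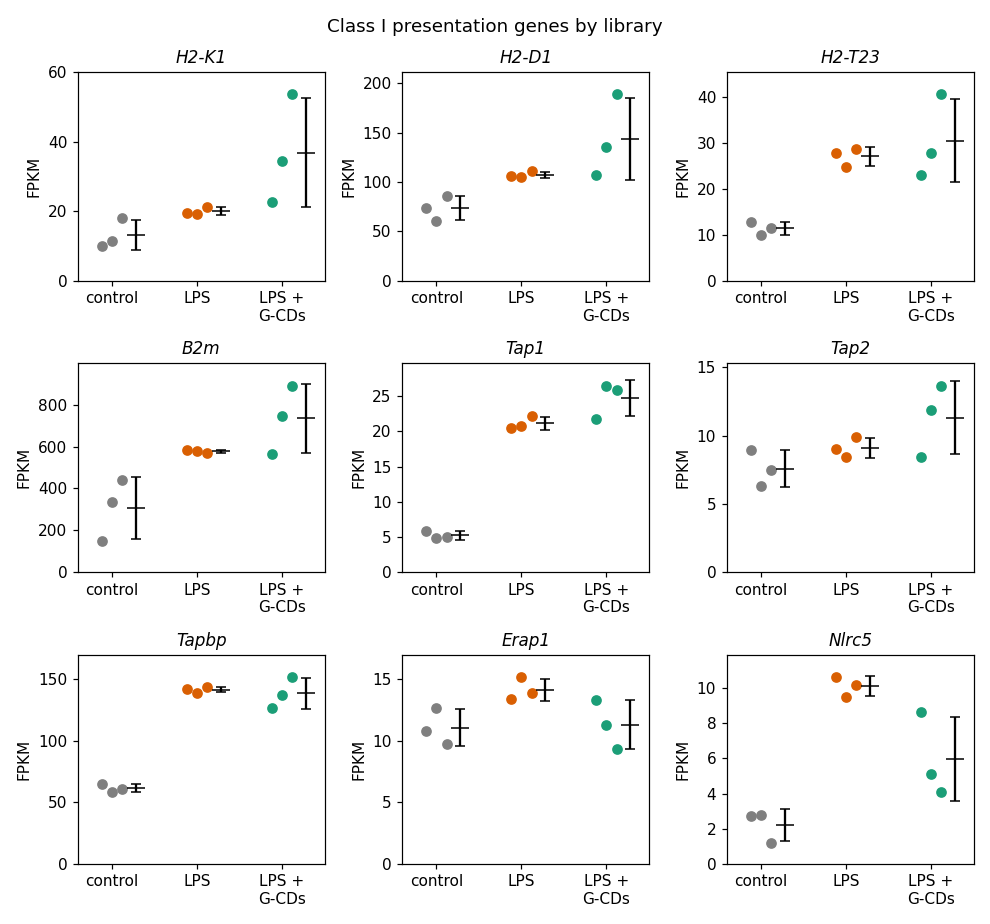
FPKM of the 9 class I presentation genes (y axes, from 0) in each library of the control, LPS and LPS + G-CDs groups; points are libraries 1 to 3 from left to right, and bars show the mean ± SD (n = 3). Tap1 and Tapbp are separated between control and LPS, whereas the LPS + G-CDs libraries spread widely for H2-K1, H2-D1 and Nlrc5.

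Among the heavy chains, H2-D1 was the most abundant per length, with FPKM values of 74.1, 60.9 and 85.9 in the control and 106.5, 105 and 111 in the LPS libraries. The LPS libraries were all higher, but the log2 fold change of 0.55 ± 0.21 (SE) did not pass (limma adjusted p = 0.0816). The Qa-1 heavy chain gene H2-T23 read 12.8, 10.002 and 11.5 FPKM in control and 27.8, 24.8 and 28.6 FPKM in LPS libraries. It rose by 1.18 ± 0.20 on the log2 scale, with an adjusted p of 0.00188, and the groups did not overlap. H2-K1 was measured at 10.1, 11.3 and 18.2 FPKM in control and 19.5, 19.3 and 21.2 FPKM in LPS libraries. Its groups were separated by a small gap, with control 3 close to the LPS libraries, and its log2 fold change was 0.60 ± 0.30 (adjusted p = 0.165).

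B2m, the light chain shared by all these heavy chains, was the most abundant member. It was measured at 149, 335 and 442 FPKM in control and 582, 579 and 570 FPKM in LPS libraries. Control 1 stood far below the other control libraries, and the LPS libraries were nearly equal. The log2 fold change was 1.04 ± 0.37 (adjusted p = 0.0593). Without control 1 it was 0.58 (adjusted p = 0.0875). Cd68, a macrophage lysosomal glycoprotein named after its values were seen, was also low in control 1, at 86.8 FPKM against 324 and 418 FPKM in the other controls. Control 1 was also the lowest control for Fcgr1 (26.2 FPKM against 40.1 and 51.7 FPKM) and Itgam (6.41 FPKM against 8.03 and 11.3 FPKM). The same held for Lyz2 (1539 FPKM against 1665 and 2083 FPKM) and Spi1 (105 FPKM against 108 and 157 FPKM). Control 1 was not the lowest for Cd14 (427 FPKM against 387 and 493 FPKM) or Csf1r (454 FPKM against 469 and 431 FPKM). Nor was it for Adgre1 (8.50 FPKM against 10.3 and 8.26 FPKM).

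Within the peptide loading complex the transporter subunits differed in response. Tap1 stood at 5.87, 4.78 and 4.96 FPKM in control and 20.4, 20.7 and 22.2 FPKM in LPS libraries, a rise of 1.84 ± 0.12 on the log2 scale (adjusted p = 6.68e-06). Every LPS library was above every control library. Tap2, its obligate partner in the transporter, read 8.95, 6.31 and 7.49 FPKM in control and 9.01, 8.43 and 9.90 FPKM in LPS libraries, with overlapping groups and a log2 fold change of 0.25 ± 0.18 (adjusted p = 0.348), or 0.14 without control 2. The ratio of Tap1 to Tap2 FPKM was 0.656, 0.758 and 0.663 in control and 2.27, 2.46 and 2.24 in LPS libraries. In control cells Tap2 was therefore the more abundant transcript per length, and in LPS cells it was Tap1. The 3.36-fold difference in this ratio gave an exact two-sided permutation p of 0.1, the smallest that 3 against 3 libraries allow, and 0.245 after Benjamini-Hochberg adjustment over 27 ratio comparisons.

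Tapbp, which encodes tapasin, read 65.2, 58.6 and 61.0 FPKM in control and 142, 139 and 144 FPKM in LPS libraries, a log2 difference of 1.19 ± 0.12 (adjusted p = 9.89e-05). Its spread within each group was small compared with the gap between the groups.

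Psmb9, which shares its promoter stretch with Tap1, did not pass. It was measured at 4.72, 3.40 and 5.72 FPKM in control and 3.76, 3.33 and 4.55 FPKM in LPS libraries, with a log2 fold change of -0.19 ± 0.22 (limma adjusted p = 0.56). The Tap1 to Psmb9 ratio, added after the values were seen, was 1.24, 1.41 and 0.867 in control and 5.44, 6.23 and 4.88 in LPS libraries. These groups did not overlap, and the ratio was 4.78-fold higher with LPS (exact permutation p = 0.1, adjusted p = 0.245). As the ratio was chosen on these values, it is given as a description. The 27 ratio comparisons adjusted together include it and a Tapbp to Tap2 ratio that was not planned either.

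Erap1, the endoplasmic reticulum aminopeptidase, varied little, at 10.8, 12.7 and 9.71 FPKM in control and 13.4, 15.2 and 13.9 FPKM in LPS libraries. The groups did not overlap, but the log2 fold change of 0.34 ± 0.15 did not pass (adjusted p = 0.122). Nlrc5 was the least abundant member in control cells, at 2.71, 2.76 and 1.16 FPKM, and it stood at 10.6, 9.51 and 10.2 FPKM in LPS libraries. This corresponded to a rise of 1.84 ± 0.27 on the log2(FPKM + 1) scale (adjusted p = 0.00101), a scale that understates changes of genes this low.

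Ordered by mean FPKM, the levels in control cells ran B2m, H2-D1, Tapbp, H2-K1, H2-T23, Erap1, Tap2, Tap1 and Nlrc5. The ranges of H2-D1 and Tapbp overlapped, as did those of H2-K1, H2-T23 and Erap1. In LPS cells the order was B2m, Tapbp, H2-D1, H2-T23, Tap1, H2-K1, Erap1, Nlrc5 and Tap2, with overlapping ranges for Tap1 and H2-K1 and for Nlrc5 and Tap2.

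LPS + G-CDs against LPS addressed what G-CDs added to the stimulus. At an adjusted p under 0.05, 0 of the 9 members rose and 0 fell, against 0.25% of all genes that rose and 0.242% that fell (57 of 11585 genes in all, and 1765 at an unadjusted p under 0.05). The voom fit on recovered reads also called 0 members. By unadjusted limma p, Nlrc5 (0.0258) and H2-K1 (0.0322) were under 0.05, with adjusted p-values of 0.301 and 0.317. All 3 doubly treated libraries exceeded all 3 LPS libraries for 1 member, H2-K1, as they did for 12.9% of all genes, and were lower for 2 members, Nlrc5 and Erap1, as for 15% of all genes. The members' median log2 fold change was 0.21, compared with 0.02 over all genes.

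H2-K1 was measured at 22.5, 34.3 and 53.7 FPKM in the LPS + G-CDs libraries, compared with at most 21.2 FPKM in the LPS libraries. Library 1 lay close to the LPS range and library 3 far above it. The log2 difference was 0.77, with a 95% confidence interval of 0.08 to 1.45, and it was 0.46 without library 3 and 1.07 without library 1. Once each library's length trend was taken out, it was 0.59 (adjusted p = 0.27). The H2-K1 to B2m ratio was 0.0399, 0.0458 and 0.0602 with G-CDs and 0.0335, 0.0333 and 0.0373 with LPS alone. These did not overlap either (exact permutation p = 0.1, adjusted p = 0.245). The H2-D1 and H2-T23 to B2m ratios overlapped, at 1.04-fold (exact permutation p = 0.7) and 0.877-fold (p = 0.2) of LPS. Against control, the H2-K1 to B2m ratio with G-CDs was 1.05-fold and overlapped (exact permutation p = 0.9).

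H2-D1, at 106.7, 135 and 189 FPKM, and B2m, at 564, 749 and 892 FPKM, overlapped their LPS libraries and extended above them. Their log2 differences from LPS were 0.38 (95% confidence interval -0.11 to 0.86) and 0.32 (-0.51 to 1.15). With the length trend removed these were 0.20 and 0.07, without LPS + G-CDs 3 they were 0.16 and 0.17, and without LPS + G-CDs 1 they were 0.57 and 0.50. With TPM they were 0.21 and 0.15, and with quantile normalization 0.19 and 0.0004. H2-T23 read 23.1, 27.8 and 40.7 FPKM, on either side of the LPS libraries, and its log2 difference of 0.13 (-0.31 to 0.57) was -0.01 with the length trend removed. For these 4 genes library 1 was the lowest and library 3 the highest, the same order as the median of short genes.

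Nlrc5 was measured at 8.66, 5.13 and 4.07 FPKM with G-CDs, all below the lowest LPS library at 9.51 FPKM and all above the highest control at 2.76 FPKM. The log2 difference from LPS was -0.73, with a 95% confidence interval of -1.35 to -0.11. It was -0.99 without library 1, -0.53 without library 3, and -0.53 with the length trend removed (adjusted p = 0.236). Erap1 read 13.3, 11.3 and 9.31 FPKM, below the LPS libraries and close to the control libraries, with a log2 difference of -0.31 (-0.65 to 0.03), or -0.16 with the length trend removed and -0.19 without library 3. Nlrc5 (8493 bases) and Erap1 (7280 bases) are the longest members, and their highest and lowest libraries are those with the highest and lowest median of long genes.

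**Figure D2:**
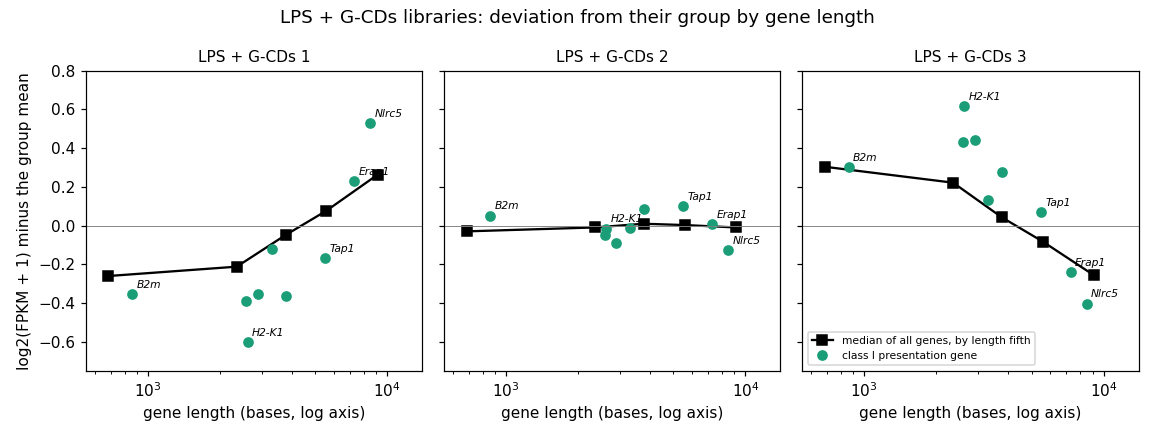
Deviation of log2(FPKM + 1) from the LPS + G-CDs group mean (y axis) against gene length in bases (log x axis), for each of the 3 LPS + G-CDs libraries; circles are the class I presentation genes and squares the median of all tested genes in each of 5 length classes. The trend runs upward in library 1, is flat in library 2 and runs downward in library 3. Several members, among them H2-K1, H2-D1, H2-T23, Tap2 and Nlrc5, lie further from 0 than the median of genes of similar length in libraries 1 and 3.

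In the peptide loading complex, Tap1 read 21.8, 26.5 and 25.9 FPKM, Tap2 8.41, 11.9 and 13.6 FPKM and Tapbp 127, 137 and 152 FPKM with G-CDs. All 3 genes overlapped their LPS range, with log2 differences from LPS of 0.21 (-0.06 to 0.49), 0.26 (-0.15 to 0.68) and -0.03 (-0.31 to 0.24). With TPM these differences were 0.05, 0.11 and -0.20. The Tap2 difference was 0.12 without LPS + G-CDs 3 and 0.44 without LPS + G-CDs 1. The Tap1 to Tap2 ratio was 2.59, 2.23 and 1.90, which overlapped the LPS libraries (exact permutation p = 0.7).

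**Figure D3:**
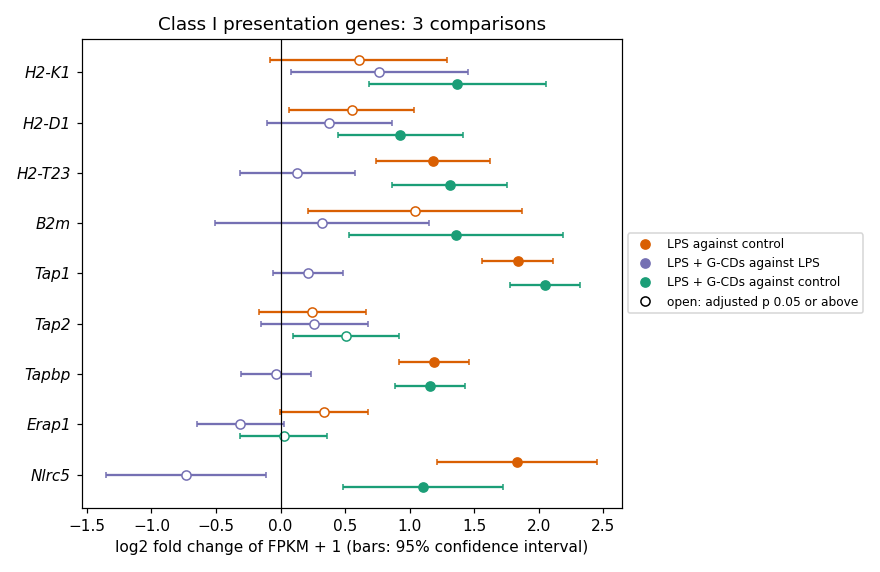
Log2 fold change of FPKM + 1 (x axis) for each member in 3 comparisons, with 95% confidence intervals from limma; filled points have an adjusted p under 0.05. LPS against control shows 4 filled points, LPS + G-CDs against LPS none, and LPS + G-CDs against control 7.

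LPS + G-CDs against control, which shares its libraries with the comparisons above, is given beside them. Here 7 members rose, all but Tap2 and Erap1, and 0 fell, against 12.8% of all genes that rose and 12.4% that fell. The log2 fold changes were 2.05 ± 0.12 for Tap1, 1.37 ± 0.30 for H2-K1, 1.36 ± 0.37 for B2m, 1.31 ± 0.20 for H2-T23, 1.16 ± 0.12 for Tapbp, 1.10 ± 0.27 for Nlrc5 and 0.93 ± 0.21 for H2-D1, with limma adjusted p-values from 3.87e-06 (Tap1) to 0.0247 (B2m). Tap2 was at 0.51 ± 0.18 (adjusted p = 0.075) and Erap1 at 0.02 ± 0.15 (adjusted p = 0.928). Tap2 passed without LPS + G-CDs 1 (0.69, adjusted p = 0.0135) and with the length trend removed (0.51, adjusted p = 0.0391). With the length trend removed 8 members rose, as did 1785 of all 11585 genes, against 1488 in the main fit. Tap2 was at 0.11 with TPM (adjusted p = 0.594) and 0.28 when scaled to reads on genes (adjusted p = 0.246). When only the 6 libraries of this comparison were fitted, 4 members rose, and the genes called higher in all fell from 1488 to 951 of 11585. B2m did not pass without LPS + G-CDs 2 (adjusted p = 0.0791) or 3 (0.0645), with quantile normalization (log2 fold change 0.75, adjusted p = 0.0878) or with no filter on low values (0.0755), and without control 1 its log2 fold change was 0.91 (adjusted p = 0.0233). H2-D1 was at 0.49 with TPM and 0.59 with quantile normalization, and Tapbp at 0.72 with TPM, and these calls held. Nlrc5 did not pass with TPM (0.78, adjusted p = 0.118).

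The rest of the heavy chain family was followed through a list of 23 genes, of which 21 were measured and 10 tested. With LPS, 3 rose (H2-T24, H2-T23 and H2-T22) and 2 fell (Hfe and Fcgrt), against 15.8% and 15.6% of all genes. H2-T24, a nonclassical heavy chain gene, had the largest rise, from 20.9, 14.6 and 16.7 FPKM in control to 87.1, 81.2 and 78.0 FPKM in LPS libraries (log2 fold change 2.19 ± 0.18, adjusted p = 2.54e-05), and it read 60.8, 58.4 and 41.8 FPKM with G-CDs. H2-T22 rose by 0.62 ± 0.18 (adjusted p = 0.029). Hfe, which encodes a class I-like regulator of iron uptake, fell by 1.07 on the log2 scale, and Fcgrt, the neonatal Fc receptor, fell by 0.57 (adjusted p = 0.0426), a call that held in only 11 of 21 alternatives, with adjusted p-values up to 0.136. H2-M3, which presents formylated peptides, stood at 13.2 to 19.9 FPKM and H2-Q4 at 8.46 to 15.2 FPKM across all libraries, H2-Q6 ranged from 7.32 to 18.5 FPKM, and H2-Q7 stayed under 0.3 FPKM. None of the 10 tested genes passed between LPS + G-CDs and LPS by limma, where 57 of all 11585 genes did. An unadjusted p under 0.05 was found there for 4 of the 10 and for 1765 of all genes. Against control, 6 rose and 1 fell with LPS + G-CDs, where 12.8% of all genes rose and 12.4% fell.

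Heavy chain genes resemble each other, so reads may be divided between them. Of the 50-base words in the longest GENCODE M21 transcript, 15.0% in H2-T23, 14.3% in H2-D1 and 8.11% in H2-K1 also occurred in another gene, and 6.52% of the H2-K1 words occurred in H2-D1. The share was 35.8% for H2-T22, chiefly with H2-T10, 32.0% for H2-Q6 and 3.23% for H2-T24. It was 0 for B2m, Erap1 and Nlrc5, 0.647% for Tap1 and 2.0% for Tapbp.

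Peptide supply was examined through the proteasome. In interferon-treated cells the standard catalytic subunits Psmb5, Psmb6 and Psmb7 are commonly replaced by the immunoproteasome subunits Psmb8, Psmb9 and Psmb10, in this order. Of the 5 immunoproteasome genes (these 3 and the activators Psme1 and Psme2), 0 rose and 0 fell with LPS by limma. Of all genes tested, 15.8% rose and 15.6% fell. Among the 5, 0 had an unadjusted p under 0.05, and their median log2 fold change was -0.03. Psmb8 read 34.3, 22.1 and 33.3 FPKM in control, 24.7, 25.5 and 25.3 FPKM in LPS and 22.5, 37.6 and 54.5 FPKM in LPS + G-CDs libraries, so that all 3 groups overlapped. The Psmb8 to Psmb5 ratio was 0.492, 0.476 and 0.537 in control and 0.429, 0.504 and 0.466 in LPS libraries (exact permutation p = 0.4). The Psmb9 to Psmb6 ratio was 0.0695, 0.0555 and 0.0656 in control and 0.0441, 0.0405 and 0.0544 in LPS libraries, lower without overlap (exact permutation p = 0.1, adjusted p = 0.245). The Psmb10 to Psmb7 ratio was 1.93, 1.04 and 1.24 in control and 0.967, 0.910 and 0.860 in LPS libraries, again lower without overlap at the same p-values. Against control, LPS + G-CDs cells had higher Psme2 (log2 fold change 1.16 ± 0.29, adjusted p = 0.0191) and higher Psmb7 (0.89 ± 0.25, adjusted p = 0.0299), calls that held in 19 and 11 of 22 alternatives.

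**Figure D4:**
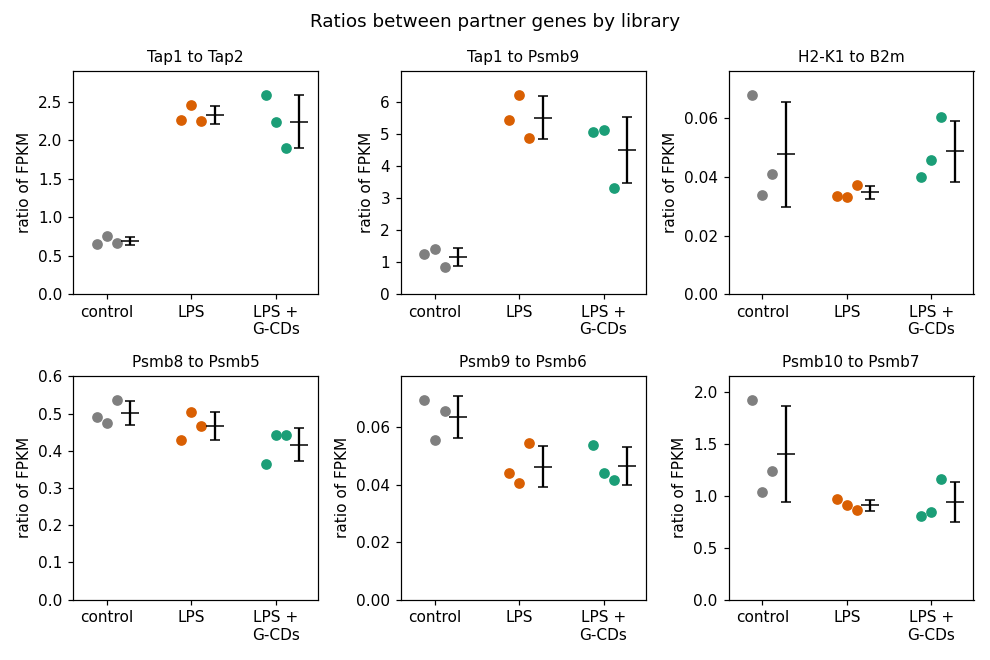
Ratios of FPKM between partner genes (y axes, from 0) in each library of the 3 groups, with the mean ± SD (n = 3) beside the points. The Tap1 to Tap2 and Tap1 to Psmb9 ratios are separated between control and LPS, and the Psmb9 to Psmb6 and Psmb10 to Psmb7 ratios lie lower in the LPS libraries than in control.

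Among 9 measured peptidases, 3 rose with LPS and 0 fell. Of all genes tested, 15.8% rose with LPS and 15.6% fell. Lnpep, an endosomal aminopeptidase that trims cross-presented peptides, rose by 1.52 ± 0.37 on the log2 scale (limma adjusted p = 0.0137). Tpp2 rose by 0.90 ± 0.20 (adjusted p = 0.00903) and Lap3 by 0.44 ± 0.13 (adjusted p = 0.0333). Lnpep read 17.9, 9.63 and 6.01 FPKM with G-CDs against 22.1 to 27.2 FPKM with LPS, a log2 difference of -1.17 ± 0.37 that did not pass (adjusted p = 0.255). Lnpep is a long gene (14144 bases), and its highest and lowest libraries are those with the highest and lowest median of long genes. Of 14 loading and folding genes, 4 rose with LPS (Tap1, Tapbp, Hspa5 and Sec61a1) and Erp29, a chaperone of the endoplasmic reticulum, fell by 1.64 on the log2 scale (adjusted p = 0.00126). The chaperones Calr, Canx and Pdia3, which act with tapasin, were abundant at 411 to 712, 174 to 258 and 297 to 431 FPKM and did not pass in any comparison. The tapasin-related Tapbpl stayed between 2.03 and 3.42 FPKM.

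Regulators known to act on class I genes were examined next. For comparison, 15.8% of all genes tested rose with LPS and 15.6% fell. Of 16 tested, 7 rose with LPS, among them Nfkb1, Stat2, Irf8, Nlrc5, Irf9 and Rela, and Nfyb fell by 0.43 on the log2 scale (adjusted p = 0.0252, called in 17 of 22 alternatives). Nfkb1 rose by 2.57 ± 0.17 and Stat2 by 2.04 ± 0.19 on the log2 scale. Irf1 stood at 3.14, 2.67 and 3.74 FPKM in control and 3.64, 4.15 and 3.72 FPKM in LPS libraries, which overlapped (adjusted p = 0.291). With G-CDs it read 4.66, 5.90 and 6.30 FPKM, above every LPS library (log2 difference 0.45, adjusted p = 0.261) and higher than control by 0.66 (adjusted p = 0.00886). The RFX subunit gene Rfx5 read 2.60 to 5.63 FPKM and did not pass. None of the 16 passed between LPS + G-CDs and LPS by limma, where 5 had an unadjusted p under 0.05. Of all 11585 genes, 57 passed there and 1765 had an unadjusted p under 0.05.

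Type I interferon response genes were read in the same libraries, where 15.8% of all genes tested rose with LPS and 15.6% fell. All 30 listed genes rose with LPS, with a median log2 fold change of 3.65, led by Isg15 (6.13 ± 0.31) and Cxcl10 (5.79 ± 0.16). Ifnb1, the interferon beta gene, was at 0 reads in every control library and at 10.1, 10.1 and 11.8 FPKM with LPS, and at 6.46, 7.87 and 11.9 FPKM with G-CDs. None of the 30 passed between LPS + G-CDs and LPS by limma, where 8 had an unadjusted p under 0.05 and the median was -0.09. Over all 11585 genes, 57 passed there and 1765 had an unadjusted p under 0.05. Of 11 interferon receptor and signaling genes, 3 rose with LPS (Socs3, Jak2 and Socs1) and 2 fell, Ifngr1 by 0.44 (adjusted p = 0.0309) and Ifnar2 by 0.37 (adjusted p = 0.0264) on the log2 scale, each called in 16 of 22 alternatives.

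Class II presentation, by which exogenous peptides reach CD4+ T cells, was compared alongside. Over all genes tested, 15.8% rose with LPS and 15.6% fell. Of 13 listed genes 5 were tested, and with LPS 0 rose and 2 fell: Ifi30, a lysosomal thiol reductase, by 1.79 and H2-DMa, which loads class II peptides, by 1.40 on the log2 scale. The class II coactivator Ciita, a relative of Nlrc5, held 0.02 FPKM or less, H2-Aa and H2-Eb1 were at 0 in every library, and H2-Ab1 did not exceed 0.08 FPKM.

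Across the 9 libraries, the non-member genes whose log2(FPKM + 1) was most alike, among those with a mean FPKM of at least 5, were Psmc1 for H2-K1 (Pearson r = 0.995), Surf4 for H2-D1 (0.998), Dok2 for H2-T23 (0.993), Ubald2 for B2m (0.994), Cth for Tap1 (0.997), Sertad1 for Tap2 (0.986), Junb for Tapbp (0.999), Tug1 for Erap1 (0.990) and Rnf213 for Nlrc5 (0.995). These are descriptions over 9 points in 3 groups that share the group differences and the length trend, and Tug1 (9734 bases) and Rnf213 (16888 bases) are long, as Erap1 and Nlrc5 are. Among the members themselves, Tap1 and Tapbp were most alike (r = 0.990), followed by H2-T23 and Tapbp (0.970) and H2-K1 and H2-D1 (0.964), and Erap1 and Tap2 were least alike (r = -0.365).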

How the data were processed

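Total RNA was extracted with TRIzol, poly(A) RNA was fragmented and randomly primed, and libraries were sequenced on an Illumina instrument. The authors deposited FPKM values per gene and library with gene coordinates and lengths. The labels name GRCm38 and mm10, while the aligner and counter are not given in the sources used here. Of the members, 7 have the coordinates of GENCODE M21. FPKM times length and the library size recovered for each library gave whole reads (within 0.05) for 100% of values, used for depth and 1 alternative.

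Values were taken as log2(FPKM + 1), filtered as described above and tested in limma 3.58.1 under R 4.3.3 (linear model, eBayes with trend, 1 model for 3 groups, two-sided, Benjamini-Hochberg over 11585 genes). Fold changes understate low genes. Ratios were tested by exact permutation. The fit was tested on simulated data. Biopython 1.88 aligned promoters.

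Same-numbered control and LPS libraries deviated together weakly (correlations 0.103, 0.137 and 0.113), all over the limit of 0.1. For control and LPS + G-CDs the correlations were 0.28, 0.0575 and 0.653. Differently numbered libraries were not compared, so these values do not establish that the numbers pair the libraries. Blocked values stand beside changed calls.

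Members, 16 gene lists, ratios and tests were chosen with earlier results of these data known. Named genes were the members, fixed pathway partners, the 2 largest called rises and falls without overlap per list and comparison, and the most alike gene of each member. Other genes that passed within a list (Rela, Irf8, Irf9, Hspa5, Sec61a1, Socs1 and Itgam) were named after their values were seen. So were Cd68, Fcgr1, Spi1 and the Tap1 to Psmb9 ratio. A Tapbp to Tap2 ratio was not planned either. A listed regulator is not reported here. Motifs were chosen after the promoter sequences were seen. Alternatives covered a pseudocount of 0.1, dropping the filter or raising it to FPKM 5, scaling by TPM, quantiles or median of ratios, only the 6 compared libraries, no trend, array weights, voom, length-trend removal, the replicate block and leaving out each library. Scaling to the reads on genes was added after seeing the data.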

Additional observations from a re-analysis of the deposited data

How the results depend on the processing

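Of 594 values of the members under alternatives, 550 kept their direction and their side of the threshold, 26 newly passed, 8 no longer passed and 10 reversed. Array weights did not converge and are given for completeness: they raised 8 members with LPS against control and called 5 members higher and 2 lower with LPS + G-CDs against LPS, where over all 11585 genes they called 2725 higher in the first and 4030 higher and 3830 lower in the second comparison. Members called higher numbered 7 for LPS against control under the replicate block or with the length trend removed, and 4 for LPS + G-CDs against control with the 6 libraries of that comparison. Leaving out each library gave 4 to 5 (LPS against control), 0 (LPS + G-CDs against LPS) and 6 to 8 (LPS + G-CDs against control). Over all 11585 genes, those called higher numbered 1285 to 2169, 7 to 106 and 1017 to 1686 in the same order. Same-numbered LPS and LPS + G-CDs libraries correlated at 0.095, 0.0801 and 0.143, not all above 0.1, and the replicate block gave 53 calls over all genes there against 57, and 0 members. Beyond the values given in the text it changed no other member count.

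Some directions reversed. Erap1 in LPS + G-CDs against control was -0.377 (TPM), -0.212 (FPKM per reads on genes), -0.0457 (quantile normalization), -0.0763 (array weights) and -0.0929 to 0.144 without each library in turn (below 0 without control 3 or LPS + G-CDs 1). H2-T23 in LPS + G-CDs against LPS was -0.0342 (TPM), -0.0113 (length trend removed) and -0.0899 to 0.306 without each library (below 0 without LPS + G-CDs 3). Tapbp there was -0.101 to 0.0264 (above 0 without LPS + G-CDs 1), and Lap3 in LPS + G-CDs against control was -0.0035 (TPM). The cause was not tested.

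Of the other listed genes, 10 were called lower with LPS and 8 with LPS + G-CDs against control. These became 16 and 17 (TPM), and the second became 5 (no filter), 3 (6 libraries) and 14 (array weights). Array weights called 45 higher and 35 lower with LPS + G-CDs against LPS, where the main counts are 0, alongside the calls over all genes given above. Leaving out each library gave 5 to 11, 4 to 8 and, for LPS + G-CDs against LPS, 0 to 3.

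TPM moved the median of all genes to -0.21 (LPS against control), -0.12 (LPS + G-CDs against LPS) and -0.34 (LPS + G-CDs against control), and changed the calls from 1827 higher and 1803 lower to 1016 and 3141, from 29 and 28 to 19 and 18, and from 1488 and 1439 to 754 and 3301. Scaling to the reads on genes gave 1143 higher and 3157 lower (LPS against control), 28 and 21, and 986 and 2516. With 3 libraries a group, the number of libraries limits the precision.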
